A study of Homo sapiens with 20 samples.

Results

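The RNA-seq levels of 3 CCN genes (NOV, CYR61 and CTGF) and 7 genes of the YAP pathway (ANKRD1, AMOTL1, AMOTL2, LATS2, YAP1, WWTR1 and TEAD1) were described in TPC-1 cells, a line from a human papillary thyroid carcinoma. The 10 genes were chosen by name, and all 10 were found among the 54261 features of the gene count table. The table lists CCN3 as NOV, CCN1 as CYR61 and CCN2 as CTGF. The conditions compared were 6 libraries of TPC-1 cells that shared their culture for 48 h with PMN-MDSCs (the polymorphonuclear kind of myeloid-derived suppressor cell, immature neutrophil-like cells that restrain T cells), and 4 libraries of TPC-1 cells left untreated. Small RNA of the same conditions was sequenced in a further 6 and 4 libraries. Each group is the same cell line without any genetic change named in the labels. The sources used here do not give the mode of contact, or whether the PMN-MDSCs were taken away when RNA was extracted. The labels name no separate cultures, so p-values measure the spread between these libraries, which may be technical.

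CCN proteins are secreted, cysteine-rich proteins of the extracellular matrix that bind integrins and steer adhesion, migration and growth factor signaling. YAP (gene YAP1) and TAZ (gene WWTR1) are transcriptional coactivators that cannot bind DNA themselves and reach it through TEAD factors such as TEAD1. The Hippo kinases, LATS2 among them, phosphorylate YAP and TAZ and keep them in the cytoplasm, and angiomotin proteins hold them at junctions and the cytoskeleton. CYR61, CTGF and ANKRD1 are the targets most used to read YAP and TAZ activity, and LATS2 and AMOTL2 are targets that feed back on it. RNA levels do not measure the phosphorylation or location of YAP and TAZ.

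Stretches of the promoter of CTGF are printed beside those of 3 other genes because the levels of the 4 genes differed widely. TEAD factors are known to bind the letters GGAATG, or CATTCC on the other strand. RefSeq (build GRCh38.p14) supplied windows from 250 bases before to 50 bases after the start site for 7 of the 10 genes, 9 windows in all. NOV, CYR61 and TEAD1 had no window and were not searched. Both strands were searched, and 5 of the 9 windows held 8 matches, 1 window for each of 5 genes. Of all 35116 windows of that length, 14.0% held at least 1 match, 1.36% at least 2 and 0.125% at least 3. Matches are in capitals in the stretches below, which read 5′ to 3′ on the strand of the gene. All stretches lie before the start site that RefSeq gives for the window. For CTGF, ANKRD1, AMOTL2 and YAP1 the gene span of the deposited table begins upstream of that site. The AMOTL2 and YAP1 stretches lie wholly within the deposited spans, the ANKRD1 stretch in part and the CTGF stretch outside. CTGF held 3 matches, beginning 169, 104 and 95 bases before the start (chr6:131951450-131951553, minus strand). ANKRD1 held 2, beginning 220 and 128 bases before it (chr10:90921198-90921319, minus strand). AMOTL2 held 1 in the window of one of its 2 start sites (chr3:134374499-134374528, minus strand), and YAP1 held 1 (chr11:102110273-102110302, plus strand).
CTGF: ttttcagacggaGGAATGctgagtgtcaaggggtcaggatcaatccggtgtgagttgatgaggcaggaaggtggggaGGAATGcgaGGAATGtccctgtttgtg
ANKRD1: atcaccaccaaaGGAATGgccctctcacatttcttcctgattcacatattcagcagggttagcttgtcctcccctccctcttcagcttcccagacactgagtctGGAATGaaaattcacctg
AMOTL2: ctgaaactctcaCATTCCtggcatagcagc
YAP1: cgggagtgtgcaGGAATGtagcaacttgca
The match of LATS2 lay 10 bases after its start and is not printed, and the windows of AMOTL1 and WWTR1 held none. CTGF and ANKRD1 both held more than 1 match, yet CTGF was among the most abundant of the 10 genes in these cells and ANKRD1 was almost without counts. A match is a description of letters and not a measured binding site.

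RNA-seq libraries held 40237801 to 48197608 counts. Levels are given as CPM, counts per 1000000 of the library total after TMM scaling, a method that aligns libraries on the bulk of their genes. PAX8, a thyroid transcription factor, was at 508 CPM in controls and the keratins KRT8 and KRT18 at 240.2 and 350 CPM. TG was at 0.79 CPM, and TSHR, NKX2-1 and CDH1 had 0 counts in the controls, so these markers of differentiated thyroid and epithelial cells were at or near 0 in the labelled thyroid line. Of the 12 thyroid and epithelial markers, 7 were under 1 CPM in controls, while FOXE1 was at 10.2 and KRT7 at 3.89 CPM. Of 14 leukocyte and myeloid markers, 13 were under 1 CPM in controls. The summed level of the 14 was 1.82 to 2.45 CPM in controls and 24.1 to 45.4 CPM in coculture, with FCGR3B and ELANE at 0 in all libraries. By their coculture means, LYZ (13.9 CPM) and ITGB2 (11.2 CPM) were the highest of them. CD14 and CSF1R were at 2.9 and 2.75 CPM, and S100A9, S100A8, CSF3R and MPO at 0.931, 0.209, 0.0435 and 0.0402 CPM. Of 7 fibroblast markers, 5 were under 1 CPM in controls. Their summed level was 147 CPM in coculture 1, at most 9.64 CPM in the other coculture libraries and at most 7.14 CPM in controls. The summed level of 5 endothelial markers was 0.303 to 1.35 CPM in coculture and 0.158 to 0.84 CPM in controls, and that of 12 thyroid and epithelial markers was 1184 to 1292 and 1046 to 1182 CPM. In the principal components of all tested genes, coculture 1 and 2 stood apart on the first component (39.3% of the variance) at -66.1 and -60.6, and the other 8 libraries lay at 0.908 to 31.8. The part of these markers and libraries in the results below was not tested, except that fits without coculture 1 and 2 are given. In bulk RNA, fewer cells of a type and less RNA per cell cannot be told apart.

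Per kilobase of transcript length, which allows genes to be compared, CYR61 was the most abundant of the 10 genes in controls at 171 ± 31 CPM per kilobase (SD, n = 4), above 97.6% of all tested genes. WWTR1 followed at 75.6 ± 4.04 and CTGF at 62.1 ± 15.4 CPM per kilobase, 2 neighbors whose ranges overlapped. YAP1 was at 29.3 ± 3.45, AMOTL2 at 21.5 ± 6.66 and TEAD1 at 14.5 ± 2.51 CPM per kilobase, and the range of AMOTL2 overlapped those of both others. AMOTL1 at 9.63 ± 1.77 and LATS2 at 7.96 ± 1.99 overlapped each other. NOV was at 2.27 ± 0.364, clear of LATS2 above it and of ANKRD1 below it at 0.03 ± 0.0167 CPM per kilobase. In coculture the order was the same but for 2 swaps. CTGF, at 72 ± 5.74 CPM per kilobase (SD, n = 6), stood above WWTR1 at 62 ± 9.73 in 4 of 6 libraries, and LATS2, at 8.15 ± 1.09, stood above AMOTL1 at 7.53 ± 1.21 in 4 of 6 libraries, with overlapping ranges in both cases.

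**Figure D1:**
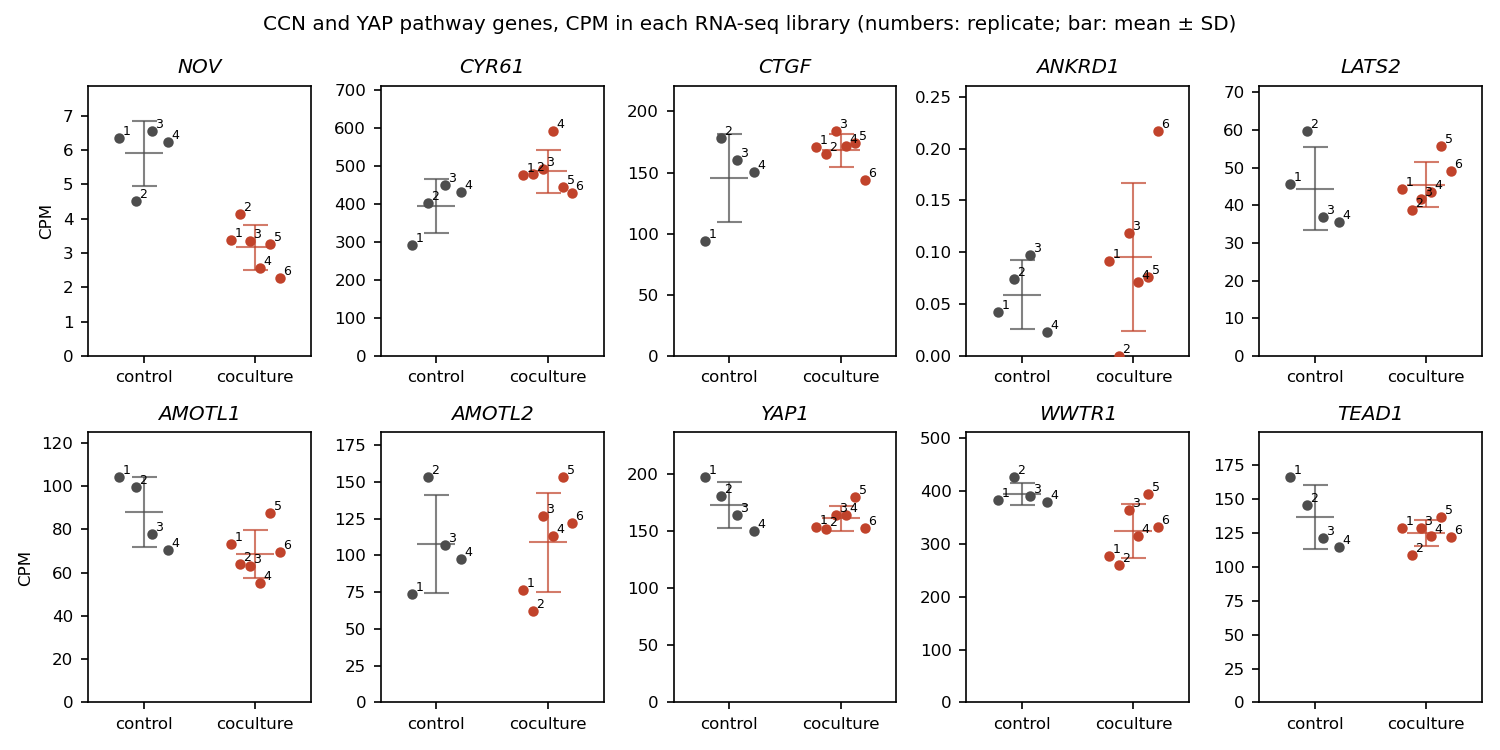
CPM of each of the 10 genes in the 4 control and 6 coculture RNA-seq libraries, with the replicate number beside each point and the mean ± SD as a bar; each vertical axis starts at 0 and has its own scale. NOV alone shows 2 groups without overlap, 4.5 to 6.55 CPM in controls and 2.26 to 4.13 CPM in coculture.

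NOV, whose product CCN3 has been described as a counterweight of CCN2, fell in coculture. Its level was 6.34, 4.5, 6.55 and 6.23 CPM in controls 1 to 4. In the 6 coculture libraries the lowest level was 2.26, the median 3.31 and the highest 4.13 CPM. Every coculture library lay below every control, with coculture 6 and 4 the lowest and control 2 the nearest to the coculture range. The means were 3.16 ± 0.663 CPM (SD, n = 6) and 5.91 ± 0.948 CPM (n = 4), a log2 fold change of -0.90 ± 0.18 (SE), or 1.87-fold lower, with an edgeR adjusted p of 0.0314 over all genes. These levels rest on 94 to 297 counts per library. NOV lies at chr8:119416312-119424438 (plus strand) in the deposited table, CYR61 at chr1:85580761-85583967 (plus strand) and CTGF at chr6:131948176-131951378 (minus strand), and no other feature of the table overlaps these 3 genes. The notes with the data name build GRCh38.p10.

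NOV was the 1 member called lower among the 9 tested, and 0 were called higher. Over all 15629 tested genes, 0.186% were called lower and 1.14% higher, 1.32% in all. Every coculture library lay below every control for 1.17% of genes and above every control for 2.45%, or 3.62% in either direction. DESeq2 and limma-voom likewise called NOV lower and 0 members higher. At an unadjusted p under 0.05, 1 member was higher and 3 were lower, 4 of 9, where 9.66% of all genes passed in either direction. The fall of NOV ranked 11 by size among the 29 genes called lower, whose median log2 fold change was -0.66. The call was lost, at adjusted p-values of 0.06 to 0.14, when coculture 4, 5 or 6 or control 1, 3 or 4 was left out, although the log2 fold change then stayed between -0.91 and -0.82. Without coculture 1 and 2 it was -1.06 (adjusted p = 0.0056).

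CYR61, which encodes CCN1, a ligand of integrins that promotes adhesion and angiogenesis, was the most abundant CCN gene and was not called. It was at 291, 403, 449.9 and 430.1 CPM in controls 1 to 4. In coculture its lowest level was 429, its median 477 and its highest 591 CPM, and 4 of 6 libraries lay above every control. Control 1 was the low library and coculture 4 the high one. The log2 fold change was 0.30 ± 0.13 (SE), with an edgeR adjusted p of 0.451. Without control 1 it was 0.18.

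CTGF, which encodes CCN2, a driver of matrix production and fibrosis, was not called either. Its levels were 94.2, 178, 159.9 and 150.4 CPM in controls 1 to 4, and 144, 172 and 184 CPM as the lowest, median and highest of coculture. Of the 6 coculture libraries, 5 lay within the control range. In coculture 1, the library with the fibroblast genes, CTGF was at 171 CPM, and the part of fibroblast RNA in that level was not tested. The log2 fold change was 0.21 ± 0.15 (edgeR adjusted p = 0.68), and 0.0486 without control 1. Control 1 held 0.579 times the mean of the other 3 controls for CTGF and 0.68 times for CYR61.

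Ratios within a library do not depend on how libraries are scaled to each other. The ratio of CYR61 to NOV, both per kilobase, was 51.9, 101, 77.8 and 78.2 in controls 1 to 4, and 131 to 261 in coculture with a median of 162. The ratio of CTGF to NOV was 16.5, 43.8, 27.1 and 26.8 in controls and 44.5 to 74.4 in coculture with a median of 60.1. For both ratios all 6 coculture libraries lay above all 4 controls, although coculture 2 at 44.5 was close to control 2 at 43.8 for CTGF to NOV. Both ratios have NOV as denominator, so their separation is not independent of that of NOV itself. The ratio of CYR61 to CTGF had medians of 2.89 in coculture and 2.9 in controls, with overlapping ranges of 2.6 to 3.51 and 2.32 to 3.15. NOV made up 0.684% to 1.44% of the summed per-kilobase level of the 3 genes in controls and 0.297% to 0.565% in coculture. These ratios were examined after the values were seen and are given without a test. The other CCN genes of the family were near 0: WISP1 had 0 counts over the 4 controls and 12 over coculture, WISP2 had 2 and 11, and WISP3 had 0 and 2.

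**Figure D2:**
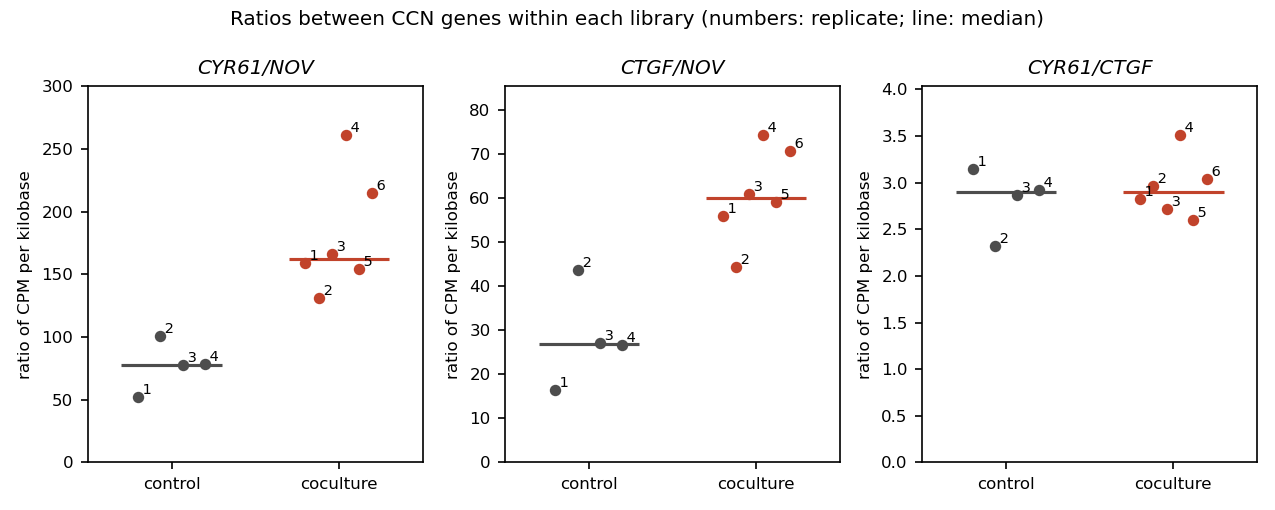
Ratio of CPM per kilobase between CCN genes within each RNA-seq library, with the replicate number beside each point and the group median as a line. CYR61/NOV and CTGF/NOV, which share NOV as denominator, are higher in every coculture library than in any control. CYR61/CTGF has medians of 2.9 in controls and 2.89 in coculture.

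ANKRD1, a nuclear and sarcomeric ankyrin repeat protein and a YAP target in many cells, was barely present. It had 2, 3, 4 and 1 counts in controls 1 to 4 and 4, 0, 5, 3, 3 and 9 in coculture 1 to 6, where 3 counts correspond to 0.0632 to 0.0758 CPM. It did not pass the count filter, so it was not among the 9 tested members. With no filter its log2 fold change was 0.66 ± 0.86 (SE, edgeR adjusted p = 0.765). A difference was not detectable at this depth. The gene lies at chr10:90912100-90921275 (minus strand).

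YAP1, the coactivator itself, was at 197, 181, 164 and 149.9 CPM in controls 1 to 4 and at 152, 159 and 180 CPM as lowest, median and highest in coculture. All 6 coculture libraries lay within the control range, and the log2 fold change was -0.10 ± 0.09 (edgeR adjusted p = 0.761). WWTR1, which encodes TAZ, was at 383, 426, 391 and 379.9 CPM in controls and at 260.2, 324 and 394 CPM as lowest, median and highest in coculture. In 5 of 6 coculture libraries WWTR1 lay below every control, and coculture 5 was the exception. Its log2 fold change was -0.29 ± 0.11 with an edgeR adjusted p of 0.404, so it was not called. The lowest WWTR1 levels were those of coculture 1 and 2 (277 and 260.2 CPM), the libraries that stood apart in the principal components. Without them the log2 fold change was -0.18. YAP1 lies at chr11:102109957-102233423 (plus strand) and WWTR1 at chr3:149517235-149724783 (minus strand). The antisense gene WWTR1-AS1 overlaps WWTR1 and was at 0.218 to 1.44 CPM, far below it.

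TEAD1 (chr11:12674422-12944737, plus strand), a DNA-binding partner of both coactivators, was at 166, 146, 121 and 115 CPM in controls 1 to 4 and at 109, 126 and 137 CPM as lowest, median and highest in coculture. In 5 of 6 coculture libraries TEAD1 lay within the control range, with a log2 fold change of -0.13 ± 0.11 (edgeR adjusted p = 0.733). The per-kilobase ratio of YAP1 to TEAD1 was 1.89 to 2.22 over all 10 libraries. Of 7 other TEAD and VGLL genes, the binding partners and competitors of YAP, 4 passed the count filter. None of the 4 was called by edgeR, DESeq2 or limma-voom, against 1.32% of all genes with edgeR, and 0 had an unadjusted p under 0.05, against 9.66%. Counts of 0 among 4 genes are near those shares. Their median log2 fold change was 0.0717 against 0.00818 over all genes. TEAD4 was the most abundant per length, at 39.6 ± 1.09 CPM in coculture and 39.1 ± 2.6 in controls. VGLL4, which competes with YAP for TEAD, was at 40.8 ± 3.6 and 45.3 ± 3.04, TEAD2 at 46.1 ± 8.77 and 40.3 ± 2.69, and TEAD3 at 17 ± 5.65 and 15.6 ± 2.62 CPM.

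LATS2, the kinase that phosphorylates YAP and TAZ, was at 45.6, 59.7, 36.8 and 35.6 CPM in controls 1 to 4 and at 38.7, 43.8 and 55.6 CPM as lowest, median and highest in coculture. All 6 coculture libraries lay within the control range (log2 fold change 0.034 ± 0.15, edgeR adjusted p = 0.962). AMOTL1, an angiomotin that binds YAP and TAZ, was at 104, 99.5, 78.1 and 70.6 CPM in controls and at 55.4, 66.8 and 87.8 CPM as lowest, median and highest in coculture. In 4 of 6 coculture libraries AMOTL1 lay below every control, with a log2 fold change of -0.35 ± 0.14 that was not called (edgeR adjusted p = 0.411). AMOTL2, its paralog and a YAP target, was at 73.6, 153, 107 and 97.4 CPM in controls and at 62, 117 and 153 CPM as lowest, median and highest in coculture, a log2 fold change of 0.014 ± 0.25 (edgeR adjusted p = 0.989). AMOTL2 varied more within groups than LATS2 and AMOTL1: coculture 1 and 2 held 76.6 and 62 CPM and coculture 3 to 6 held 113 to 153 CPM, while control 1 was the low control. LATS2 lies at chr13:20973036-21061583 (minus strand), AMOTL1 at chr11:94706418-94876753 (plus strand) and AMOTL2 at chr3:134355345-134375417 (minus strand). LOC105369438, on the strand opposite to AMOTL1, was at 0.136 to 0.38 CPM.

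Control 1 lay at opposite ends of the control range for different members. It was the lowest control for CYR61, CTGF and AMOTL2 and the highest control for AMOTL1, YAP1 and TEAD1, but neither for LATS2, WWTR1, NOV and ANKRD1. Relative to the mean of the other 3 controls it held 0.618 times the AMOTL2 level, 1.31 times that of TEAD1, 1.25 times that of AMOTL1 and 1.19 times that of YAP1. LATS2, also a target, was at 1.04 times and WWTR1 at 0.961 times. Its NOV level, 6.34 CPM, was within the range of 4.5 to 6.55 CPM of the other controls. AMOTL1, YAP1 and TEAD1 fell step by step from control 1 to control 4, with control 2 next at 99.5, 181 and 146 CPM. Under the rule for libraries set apart that is given further below, control 1 was set apart for none of the members.

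**Figure D3:**
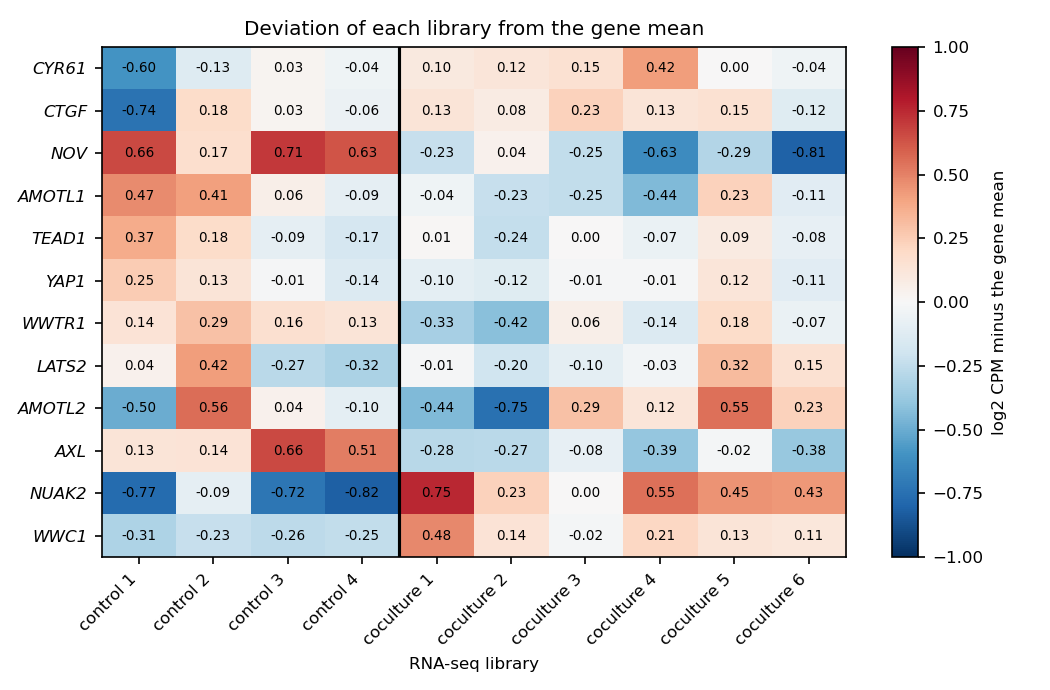
Log2 CPM of each RNA-seq library minus the mean of the gene over the 10 libraries, for 9 tested members and for AXL, NUAK2 and WWC1 (rows), with controls left and coculture right of the black line. NOV runs from 0.17 to 0.71 in controls and from -0.81 to 0.04 in coculture, and control 1 holds -0.60 for CYR61 and -0.74 for CTGF.

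Among 17 other genes of a published signature of YAP and TAZ targets, NUAK2 rose and AXL fell. NUAK2, a kinase that restrains LATS and so supports YAP, was at 6.34, 10.2, 6.57 and 6.14 CPM in controls 1 to 4. In coculture its lowest level was 10.9, at coculture 3, and its highest 18.3 CPM, at coculture 1, so that every coculture library lay above every control. Its log2 fold change was 0.99 ± 0.18 (edgeR adjusted p = 0.0174). AXL, a receptor tyrosine kinase that promotes invasion, was at 548, 554, 792 and 713 CPM in controls and 382 to 495 CPM in coculture, all 6 below every control. Its log2 fold change was -0.61 ± 0.12 (edgeR adjusted p = 0.0267). Of the 17 genes, all tested, 1 was higher, 1 lower and 15 not called, against 1.14% higher and 0.186% lower over all genes. At an unadjusted edgeR p under 0.05 there were 7 of 17, 2 higher and 5 lower, against 9.66% of all genes. Their median log2 fold change was -0.128, with 5 positive and 12 negative, against 0.00818 over all genes. DESeq2 and limma-voom called the same 2 genes. The NUAK2 call was lost without control 1, 3 or 4 and the AXL call without coculture 4 or 6 or control 3 or 4, with edgeR adjusted p-values of up to 0.0874 and 0.121.

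Of 17 genes of the Hippo kinase module and its regulators, 2 were higher, 0 lower and 15 not called, where 1.14% of all genes were higher and 0.186% lower. Their median log2 fold change was -0.0693. DESeq2 also called 0 lower, limma-voom called NUAK2 alone, and at an unadjusted edgeR p under 0.05 there were 3 higher and 0 lower, where 9.66% of all genes passed in either direction. NUAK2 stands on this list as well as on the signature. The other gene was WWC1, the scaffold KIBRA that activates LATS kinases, at 37.6, 39.8, 38.7 and 39.1 CPM in controls and 46 to 64.7 CPM in coculture. Every coculture library lay above every control (log2 fold change 0.44 ± 0.10, edgeR adjusted p = 0.0462). The WWC1 call was less stable than those of NUAK2 and AXL: limma-voom (adjusted p = 0.0565), both other count filters (0.0523 and 0.0679), and the omission of coculture 2, 4, 5 or 6 or of any 1 control (up to 0.159) each ended it. MAP4K4, a kinase that acts on LATS beside the MST kinases, was the most abundant of the list per length, at 629 ± 41.3 CPM in coculture and 577 ± 50 in controls (edgeR adjusted p = 0.658).

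**Figure D4:**
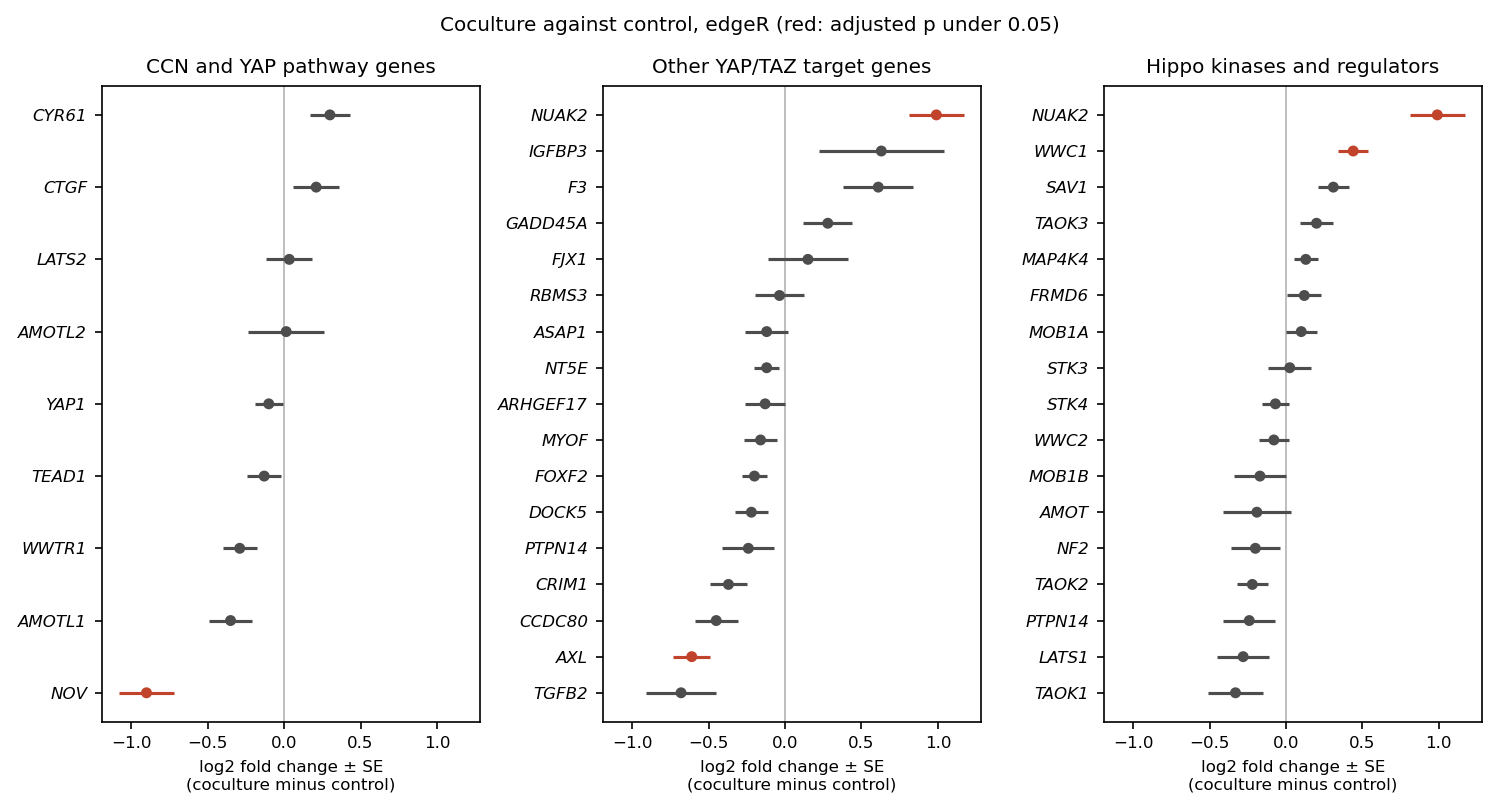
Log2 fold change of coculture minus control ± SE from edgeR for 9 tested members, 17 other YAP and TAZ target genes and 17 Hippo genes, with genes at an adjusted p under 0.05 in red. NOV (-0.90), AXL (-0.61), NUAK2 (0.99, on 2 lists) and WWC1 (0.44) are the red genes.

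Receptors of CCN proteins and actin genes that respond to the same mechanical inputs as YAP gave 0 calls, and a count of 0 in lists of this size is near the 1.32% called over all genes. Of 12 receptors tested, 0 were higher or lower with edgeR, DESeq2 or limma-voom, and 2 of 12 had an unadjusted edgeR p under 0.05, where 9.66% of all genes did. Their median log2 fold change was -0.017. ITGB1, the integrin chain shared by most CCN receptors, was the most abundant per length at 758 ± 109 CPM in coculture and 769 ± 76.2 in controls. SDC4, a heparan sulfate proteoglycan that serves as a coreceptor, was at 306 ± 65.1 and 244 ± 9.11 CPM, ITGA5 at 459 ± 82.2 and 373 ± 34.6, and LRP6 at 0.423 ± 0.101 and 0.817 ± 0.561. Of 14 tested targets of MRTF and SRF, the actin-regulated factors that share CYR61 and CTGF with YAP, 0 were called by the same 3 tools, and 3 of 14 had an unadjusted edgeR p under 0.05, against the same 9.66%, with a median log2 fold change of -0.029. FHL2, a cofactor of SRF, was at 150.1 ± 19.7 and 186 ± 20.7 CPM, TAGLN, an actin-binding protein, at 3.58 ± 1.14 and 8.73 ± 6.59, CNN2, a calponin, at 224 ± 26.3 and 194 ± 3.5, and ACTB, the cytoplasmic actin, at 8014 ± 719.9 and 7316 ± 407.

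Likeness to a member was measured as the root mean square difference between log2 profiles over the 10 libraries, each centered on its mean, among 10349 genes with at least 5 CPM on average. The genes nearest to NOV were SOX7, a transcription factor (difference 0.20), KCNIP1, a potassium channel partner (0.212), and PMEPA1, a TGF-beta target that restrains SMAD signaling (0.241). The median difference from NOV over all genes compared was 0.546, and the nearest other member, AMOTL1, was at 0.441. Since they were picked for a profile like that of NOV, their lower level in coculture follows from the choice and is a description without a test. PMEPA1 was at 38.4 ± 7.91 CPM in coculture against 72.4 ± 13.8 in controls, SOX7 at 25.7 ± 2.44 against 40.6 ± 7.68 and KCNIP1 at 9.2 ± 1.53 against 14.9 ± 1.99. Like NOV, each had its lowest control level in control 2, which the choice by profile also favors. The genes nearest to CYR61 were ZNF274, a zinc finger repressor (0.111), MITD1 (0.111) and FAM177A1 (0.121), and those nearest to CTGF were ZNF274 (0.145), PTOV1-AS2 (0.148) and TESMIN (0.158). CYR61 and CTGF were each other's nearest member at 0.153. The median difference over all genes compared was 0.319 from CYR61 and 0.337 from CTGF, smaller than that from NOV. All 5 of those genes were, like CYR61 and CTGF, lowest in control 1, which likewise follows from their choice by profile.

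MicroRNAs published to act on 3 of the members were read from the small RNA libraries. A miRNA recognizes its targets mainly through the seed, bases 2 to 8, shown in capitals. The sequences are those of RefSeq (GRCh38.p14) and are identical to those of the deposited table. The first 5 have been reported to act on CTGF and the last 2 on LATS2.
hsa-miR-18a-5p: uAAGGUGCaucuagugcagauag
hsa-miR-18b-5p: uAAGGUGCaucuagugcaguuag
hsa-miR-30a-5p: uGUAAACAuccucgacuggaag
hsa-miR-30c-5p: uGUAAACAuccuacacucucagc
hsa-miR-30e-5p: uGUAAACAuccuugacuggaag
hsa-miR-31-5p: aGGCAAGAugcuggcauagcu
hsa-miR-93-5p: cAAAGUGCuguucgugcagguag
Both miR-18 genes share 1 seed, and the miR-30 family shares another.

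The miR-30 family dominated this set, and none of the miRNAs was called. miR-30a-5p was at 82676, 73760.2, 68087 and 58128 CPM in controls 1 to 4 and at 47132 to 68132 CPM in coculture, a log2 fold change of -0.25 ± 0.13 (SE) with overlapping groups. miR-30c-5p was at 11459 ± 2111 CPM in coculture (SD, n = 6) and 10750 ± 4396 in controls (n = 4), miR-30d-5p at 13653 ± 1364 and 13351 ± 2155, miR-30e-5p at 2527 ± 359 and 2959 ± 207, and miR-30b-5p at 796 ± 149.8 and 701 ± 201. miR-18a-5p was at 185 ± 16.2 CPM in coculture and 176 ± 14.2 in controls, and miR-18b-5p at 12.4 ± 1.56 and 10.9 ± 1.18. miR-31-5p was at 2548 ± 283 and 2330 ± 181 CPM, and miR-93-5p at 1687 ± 144 and 1556 ± 183. miR-133a-3p, another miRNA reported to act on CTGF, was at 4.53 ± 3.82 and 10.8 ± 8.64 CPM, a log2 fold change of -1.24 that was -0.52 without control 4 (23.2 CPM) and -1.82 without coculture 4 (11.9 CPM), the highest library of each group. Of 14 miRNAs listed, 10 passed the count filter and 0 of the 10 were called, against 1.25% of all 797 miRNAs tested with edgeR (1.13% higher and 0.125% lower). All 10 had overlapping groups, where 3.26% of all miRNAs did not overlap, 1.88% with coculture above and 1.38% below. DESeq2 and limma-voom also called 0. At an unadjusted p under 0.05 there were 0 with edgeR, where 11.4% of all miRNAs passed, and 1 lower with each of DESeq2 and limma-voom. The smallest adjusted p was 0.444, for miR-133a-3p. miR-375-3p, reported to act on YAP1, had 32 counts over the 10 libraries, miR-133b 37, miR-372-3p 13 and miR-373-3p 2, too few to test.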

How the data were processed

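RNA-seq and small RNA-seq counts of TPC-1 cells with and without PMN-MDSCs were used. The authors deposited raw read counts per gene and per mature miRNA, whole numbers with differing library totals. BWA, HISAT2 2.0.4 and the build GRCh38.p10 are named, without roles, per the submitters' processing notes. The sources used here do not give the counting tool, annotation or strand setting, so reads of overlapping or antisense genes cannot be separated.

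The test was that of edgeR 4.0.16 under R 4.3.3 (filterByExpr, TMM, robust glmQLFit, glmQLFTest), 1 fit per assay over 6 coculture and 4 control libraries, with Benjamini-Hochberg adjustment over all 15629 genes or 797 miRNAs at a threshold of 0.05. SE is the size of the log2 fold change over the root of the quasi-likelihood F. Small RNA totals ran from 3971608 to 5895539 counts. Alternatives were DESeq2 1.42.0, limma-voom (limma 3.58.1), RLE scaling, other count filters, a replicate block, omission of each library, and omission of coculture 1 and 2. In RNA-seq, libraries of a group differed by a chi-square of at least 6.86 per degree of freedom. In small RNA-seq the value was at least 24.6. None was thus simply the same library sequenced again. Separate libraries of the same culture cannot be told from separate cultures in this way. The fit was tested on simulated data with changes planted in coculture. Of planted 1.5-fold changes, it recovered 40% in RNA-seq and 13.3% in small RNA-seq. Of planted 2-fold changes, it recovered 66% and 73.3%. A gene or miRNA that was not called may thus still differ by a small amount.

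Members, gene lists, miRNAs and the omission of coculture 1 and 2 were chosen with earlier results of these data known. Named were all members, per list every called gene or else the 3 with the smallest p plus the most abundant per length, and the 3 genes nearest in profile to each CCN member. The ratios between members were chosen after their values were seen. Lists held 12 CCN receptors, 15 MRTF and SRF targets, 17 Hippo genes, 17 signature genes, 7 TEAD and VGLL genes and 3 CCN genes, and markers of 4 cell types.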

Additional observations from a re-analysis of the deposited data

Results flagged for a closer look

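In groups of 4 and 6 libraries, the highest or lowest library was called set apart when its gap to the next exceeded Dixon's 95% critical value for the range of the group. Over 45 genes and miRNAs, 90 groups were examined and 6 were set apart, where chance gives about 1 in 20. NOV was at 4.5 CPM in control 2, below 6.23 to 6.55 CPM in the other controls. NUAK2 was at 10.2 CPM in the same control 2, above 6.14 to 6.57 CPM in the others, so for both genes control 2 lay nearest to the coculture libraries. In control 1, VGLL4 was at 49.8 CPM against 43.4 to 44.3 CPM and TEAD2 at 44.3 CPM against 38.4 to 39.4 CPM in the other controls. In coculture 3, PTOV1-AS2 was at 10.6 CPM against 8.12 to 9.01 CPM in the other coculture libraries. In coculture 4, miR-133a-3p was at 11.9 CPM against 1.22 to 5.08 CPM.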

How the results depend on the processing

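Of 720 alternative values, 653 kept their direction and side of the threshold, 43 lost a call and 24 turned direction, 0 of these for a called gene. The NOV log2 fold change ran from -1.06 to -0.82, and its call held in 10 of 17 alternatives. Libraries of both groups share replicate numbers, and deviations of same-numbered libraries correlated at 0.35, -0.0825, 0.201 and 0.137 in RNA-seq and at 0.366, -0.0343, 0.208 and 0.365 in small RNA-seq. The same-numbered coculture library was the best correlated one for controls 1 and 3 in RNA-seq and for controls 1 and 4 in small RNA-seq. For the other controls a differently numbered library was. The labels name no shared culture or day and 1 of 4 pairs in each assay was below 0, so the block was kept as an alternative. Whether the numbers pair libraries remains unknown. With a replicate block NOV was at -0.82 (adjusted p = 0.225), 0 members were called lower, and 100 genes were higher and 10 lower, with 0 miRNAs lower. The block also ended the calls of NUAK2 (0.153), AXL (0.0931), WWC1 (0.182), SOX7 (0.184), KCNIP1 (0.182) and PMEPA1 (0.139), and gave -0.18 for AMOTL2, -0.0504 for LATS2 and 0.0323 for ITGB1. DESeq2 called 333 genes higher and 106 lower, and 3 miRNAs lower. With 0 miRNAs lower stood RLE scaling, limma-voom and the fit without coculture 1 and 2, and without a count filter there were 4. Without coculture 1 and 2, 112 genes were lower, TEAD3 was at -0.22 and miR-30d-5p at -0.0518. limma-voom gave -0.0014 for AMOTL2. With each library left out in turn, members lower ran from 0 to 1, genes higher from 112 to 204, genes lower from 4 to 36, miRNAs higher from 5 to 12 and miRNAs lower from 0 to 1. Over the same omissions AMOTL2 ran from -0.13 to 0.23, LATS2 from -0.0599 to 0.21, ITGB1 from -0.0842 to 0.0426, TEAD3 from -0.026 to 0.24, TEAD4 from -0.0247 to 0.0546, TESMIN from -0.0539 to 0.15, miR-30c-5p from -0.0841 to 0.36 and miR-30d-5p from -0.0177 to 0.14. The cause of these changes was not tested. Depth limits ANKRD1, with at most 9 counts in a library, and 4 of the listed miRNAs.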
